A study of Mus musculus with 18 samples.

Results

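Dispersed genome junctions with microhomology are reads in which a recombination substrate meets a site scattered over the mouse genome. In them 1 or more bases at the joint could have come from either partner. Such reads are taken here as translocations of a broken substrate end, which was not tested for each junction. They were chosen from the deposited junction tables by position and by the read gap, that is the number of read bases between the end of the substrate alignment and the start of the genome alignment. A junction counted when its genome side lay off the substrate and off chromosome 6, held fewer than 3 telomere hexamers on either strand, lay outside 5 windows of 400 kb where junctions cluster, and had a gap of -1 bp or less, so that both alignments shared at least 1 base. Of 30937 junctions in 12 libraries, 9015 lay on the substrate, 2092 on chromosome 6, 13516 elsewhere in telomere repeats and 613 in the 5 windows. That left 5701 dispersed junctions, of which 2520 had such an overlap, 795 were joined directly and 2386 carried inserted bases. At the threshold, 538 junctions had an overlap of 1 bp and were counted in, and the 795 with a gap of 0 bp were the nearest left out. Counted once per library by prey position, strand and substrate end, the 2520 lines were 2504 distinct junctions, and 16 were repeat lines.

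The cells were mouse B cells of strain 129, transformed with v-abl and carrying an integrated pMX-INV substrate, on which the RAG recombinase makes breaks when the Abl inhibitor STI571 stops the cells in G1. The series concerns phosphorylation of CtIP. Libraries came from 4 genotypes: cells without either change (wild type), CtIP A/A cells, DNA-PKcs -/- cells, and cells carrying both changes (CtIP A/A DNA-PKcs -/-). Each genotype gave 1 library of G1 cells (STI571 at 3 µM for 48 or 72 h) and 2 libraries of G2 cells (STI571 for 24 h, then the CDK1 inhibitor RO3306 at 10 µM for 48 h). The reads were made by HTGTS, in which a primer on the substrate (the bait) is extended across the joint into whatever it was joined to (the prey). The labels do not say how many cell lines or clones each genotype had, nor that the G2 replicates were separate cultures, so the p-values measure the spread between libraries, which may be technical. The cells' DNA carries no expression, so the cell type was not checked by markers.

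DNA-PKcs is the kinase that, with the Artemis nuclease, opens the hairpins that RAG leaves on coding ends, and it belongs to classical end joining. Ends that escape classical end joining can be trimmed and paired through short matching stretches, which is called alternative end joining, and CtIP is a cofactor of the nuclease complex that starts such trimming. RAG cuts beside a heptamer, CACAGTG in its consensus form, of which the leading CAC is the part needed most. Read from a coding end, the heptamer lies in the sequence that the broken end has lost.

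The following reference sequences (RefSeq GRCm38.p6, the sequence behind mm10) show where such junctions lay. Each is written 5′ to 3′ in the direction of the read, with the lost bases of the prey before the kept ones. The first 4 are the sites where 2 or more junctions lay within 20 bases of one heptamer, 2 off and 2 in antigen receptor loci. In them the junction follows base 30, and the capitals mark CACTGTG, which is CACAGTG when read away from the break on the other strand. The last line gives the site outside telomere-like repeats that was joined to 3 bait ends, with the capitals on the complement of CAC.
Copb1 intron, chr7:114228055-114228114, plus strand: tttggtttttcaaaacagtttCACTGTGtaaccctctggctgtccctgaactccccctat
A930007I19Rik intron, chr19:29501201-29501260, plus strand: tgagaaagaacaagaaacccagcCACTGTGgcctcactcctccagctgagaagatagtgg
Ighv1-11 coding exon, chr12:114612215-114612274, plus strand: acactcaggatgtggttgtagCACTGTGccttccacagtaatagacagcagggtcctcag
Ighv1-54 coding exon, chr12:115193645-115193704, plus strand: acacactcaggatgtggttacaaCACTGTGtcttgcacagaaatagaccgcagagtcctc
Gm31718 intron, chr8:126867690-126867749, plus strand: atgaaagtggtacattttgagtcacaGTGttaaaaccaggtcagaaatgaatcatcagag

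A second set shows the overlap itself, in capitals, after 20 lost bases. The Cacna1d, chromosome 1 and Trpm8 sites carry the overlaps beginning with CACAT that recurred at the far end of the bait. The chromosome 10 and 15 sites carry the most frequent overlap of 12 bp or more. The AU040320 site gave the same junction in 4 libraries.
Cacna1d intron, chr14:30317727-30317786, plus strand: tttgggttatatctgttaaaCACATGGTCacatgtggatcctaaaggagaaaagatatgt
Between genes, chr1:57130202-57130261, minus strand: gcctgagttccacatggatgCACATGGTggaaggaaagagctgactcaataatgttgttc
Trpm8 intron, chr1:88292411-88292470, plus strand: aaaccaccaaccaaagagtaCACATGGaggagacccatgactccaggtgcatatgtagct
4930401C15Rik intron, chr10:25797141-25797200, minus strand: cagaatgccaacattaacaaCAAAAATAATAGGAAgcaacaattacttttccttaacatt
Between genes, chr15:9912693-9912752, minus strand: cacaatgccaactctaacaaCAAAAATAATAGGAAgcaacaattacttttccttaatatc
AU040320 intron, chr4:126852797-126852856, plus strand: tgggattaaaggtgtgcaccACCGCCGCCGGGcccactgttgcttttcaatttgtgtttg

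The last sequence is an interstitial telomere-like site at which the alignments placed prey joined to 6 bait ends, with the exact hexamers in capitals.
Between genes, chr1:19986347-19986406, plus strand: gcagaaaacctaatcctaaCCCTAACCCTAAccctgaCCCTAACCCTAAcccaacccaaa

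Depth limited what single libraries could show. Libraries held 289 to 7068 junctions, 87 to 1475 dispersed junctions and 38 to 668 microhomology junctions. The lowest counts were in wild type G2 replicate 2 (38), CtIP A/A G2 replicate 1 (52) and wild type G2 replicate 1 (58). The 2 G1 libraries of wild type and of CtIP A/A DNA-PKcs -/- gave 637 and 668, so any pooled count leans on them. Intervals on shares are 95% Wilson intervals and cover counting error only.

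The share of dispersed junctions with microhomology was 43.2% in wild type G1, and 55.2% and 43.7% in the wild type G2 replicates. It was 38.6% in CtIP A/A G1, and 44.1% and 61.1% in G2. DNA-PKcs -/- cells gave 32.2% in G1, and 38.1% and 27.2% in G2, the lowest of any genotype. CtIP A/A DNA-PKcs -/- cells gave 49.3% in G1, and 59.3% and 44.6% in G2. The 95% intervals were 40.7% to 45.7% for the well sampled wild type G1 library and 33.7% to 54.1% for wild type G2 replicate 2. G2 replicates of a genotype differed by a pooled SD of 9.73 points, and the 2 groups with and without DNA-PKcs overlapped.

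**Figure D1:**
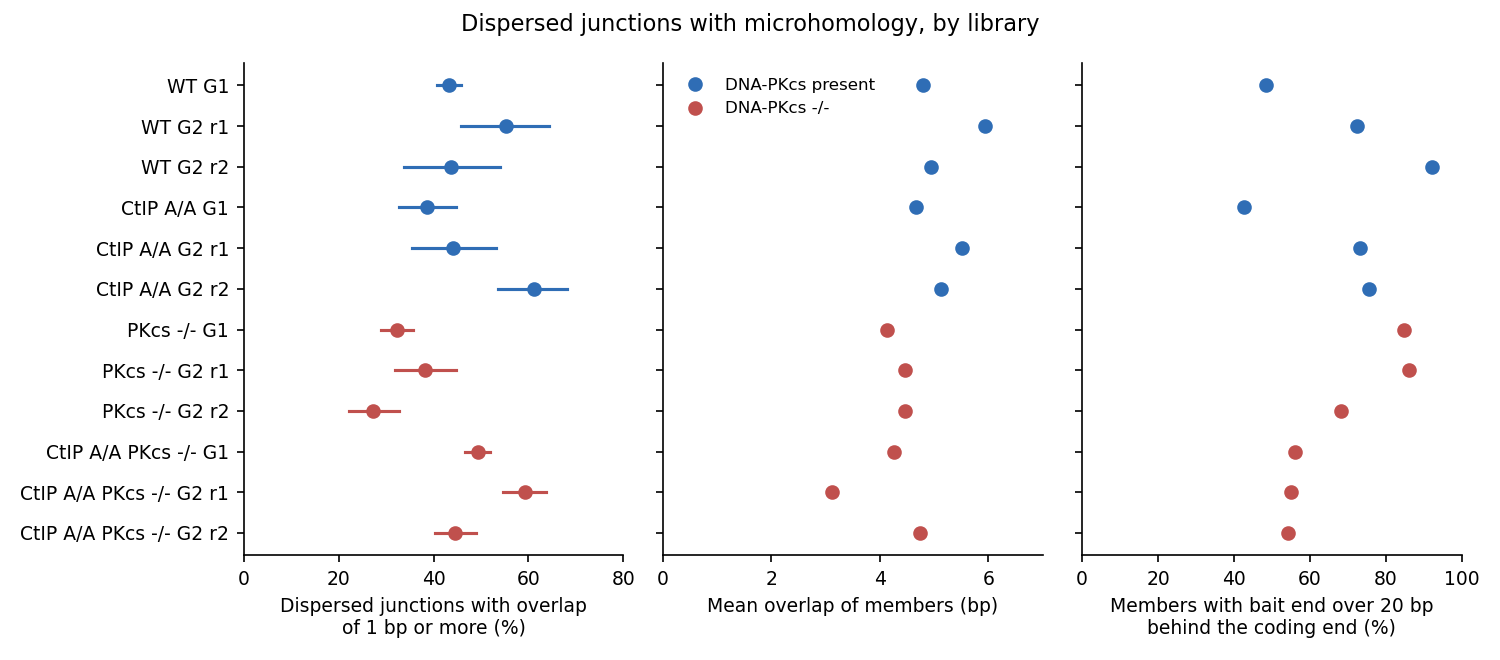
Share of dispersed junctions with an overlap of 1 bp or more (points, with 95% Wilson intervals), mean overlap of those junctions in bp, and percent of them whose bait ended over 20 bp behind the coding end, for each of the 12 libraries (r1 and r2, G2 replicates; PKcs, DNA-PKcs). The share ranges from 27.2% to 61.1% with both DNA-PKcs groups intermixed, while 5 of the 6 highest mean overlaps lie in libraries with DNA-PKcs.

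The overlaps were mostly short, with a long tail. An overlap of 1 bp made up 21.3% of the junctions, 2 bp 18.3% and 3 bp 14.0%. Overlaps of 4 to 7 bp made up 28.4% and those of 8 bp or more 18%, and the longest was 24 bp. Long deposited overlaps were often not perfect: the overlap bases equalled the genome reference in 100% of the junctions at 1 and 2 bp, in 90.5% at 7 bp, in 74.6% at 8 bp and in 59.3% at 10 bp. Over all lengths 2284 of 2509 junctions with a reference base had overlaps equal to it.

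Short overlaps took a larger part in the libraries without DNA-PKcs. Overlaps of 2 to 3 bp made up 36.4% ± 8.28 of the junctions per library (SD, n = 6) without DNA-PKcs and 24.0% ± 5.45 with it (n = 6). Those of 4 to 7 bp made up 24.5% ± 3.81 and 35.6% ± 8.32, and those of 8 bp or more 16.8% ± 5.92 and 23.3% ± 3.92. These classes were chosen after the lengths were seen and were not tested.

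**Figure D2:**
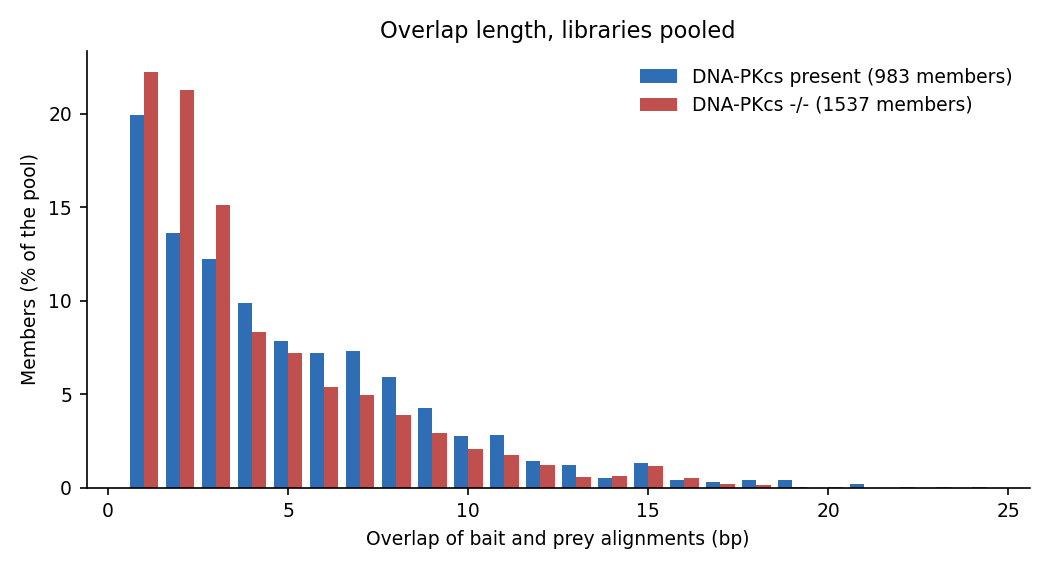
Percent of microhomology junctions at each overlap length in bp, with the 6 libraries of each DNA-PKcs group pooled. The bars without DNA-PKcs are the taller ones at 1 to 3 bp and the shorter ones from 4 to 13 bp.

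The mean overlap was 4.79 bp in wild type G1, and 5.93 and 4.95 bp in G2. It was 4.66 bp in CtIP A/A G1, and 5.52 and 5.12 bp in G2. In DNA-PKcs -/- cells it was 4.14 bp in G1, and 4.47 and 4.46 bp in G2. In CtIP A/A DNA-PKcs -/- cells it was 4.26 bp in G1, and 3.12 and 4.74 bp in G2. Only the last of these values lay within the range of the libraries with DNA-PKcs, which ran from 4.66 to 5.93 bp.

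The comparison of libraries without and with DNA-PKcs asked whether the kinase shapes these joints. Within each of the 4 combinations of CtIP genotype and phase (strata) the libraries were set against each other. Averaged over these, the mean overlap was 4.2 bp without DNA-PKcs and 5.05 bp with it, and it was lower in 4 of 4 strata. The difference of -0.851 bp (95% interval -1.93 to -0.402) had p = 0.0139 when libraries were exchanged within strata (exact permutation, two-sided), the smallest p that the 144 arrangements allow. Adjusted over the 4 measures tested it missed the threshold (adjusted p = 0.0556, exact permutation, Benjamini-Hochberg), which a single measure cannot pass in this design. Within sequencing run 1 the difference was -1.93 bp and within run 2 -0.478 bp. With telomere-like prey left out it was -0.397 bp (p = 0.167, adjusted p = 0.667, exact permutation), and such prey made up 8.38% to 26.6% of the junctions in libraries without DNA-PKcs and 0% to 3.92% in those with it.

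The other 3 measures did not separate the DNA-PKcs groups. The microhomology share was 41.5% without and 45.9% with DNA-PKcs, a difference of -4.41 points (-17.1 to 10.7, adjusted p = 0.736, exact permutation). Microhomology junctions per 100 junctions free of telomere repeats numbered 13.5 and 15.1, a difference of -1.67 (-10.1 to 8.11, adjusted p = 0.736, exact permutation). Junctions whose bait ended over 20 bp behind the coding end made up 68.1% and 61.9%, a difference of 6.19 points (-22.3 to 24.8, adjusted p = 0.736, exact permutation), and without the G1 library of wild type or of DNA-PKcs -/- cells that difference was -3.85 points.

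CtIP A/A cells did not pass the threshold in any of the 4 measures. In CtIP A/A libraries 56.9% of junctions had bait ends over 20 bp behind the coding end, against 73.2% with wild type CtIP, and the share was lower in 4 of 4 strata. The difference was -16.3 points (-29.8 to -2.86, p = 0.0417, adjusted p = 0.167, exact permutation), and it was -15.3 points within run 1 and -16.3 within run 2. The microhomology share was 48.1% in CtIP A/A and 39.4% in CtIP wild type libraries, higher in 3 of 4 strata, with a difference of 8.71 points (-4.58 to 22.0, adjusted p = 0.333, exact permutation), which was 13.2 points without wild type G1 or CtIP A/A G1. Junctions per 100 numbered 15.8 and 12.8 (adjusted p = 0.542), and the mean overlap was 4.54 and 4.71 bp (adjusted p = 0.542, both by exact permutation).

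G2 and G1 libraries were not told apart either. The microhomology share was 46.7% in G2 and 40.8% in G1, higher in G2 in 4 of 4 genotypes, with a difference of 5.85 points (-5.75 to 17.4, adjusted p = 0.494, exact permutation, 81 arrangements). Bait ends over 20 bp behind the coding end made up 72.1% in G2 and 58.0% in G1, a difference of 14.1 points (-1.75 to 32.7, adjusted p = 0.494, exact permutation), higher in G2 in 2 of 4 genotypes. It was 7.50 points without wild type G1 and 21.3 without DNA-PKcs -/- G1. The mean overlap was 4.79 and 4.46 bp, and junctions per 100 numbered 13.4 and 15.2 (adjusted p = 0.494 and p = 0.568, exact permutation). All G1 libraries were sequenced in run 2, and within that run the share differed by 3.33 points.

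Bait ends fell at both extremes of the stretch that the reads could show. The most frequent bait end on the substrate, position 1947, was taken as the coding end, and the first coding base after the heptamer is 1943. Bait ends were read from the bait alignment, so overlap bases, which could equally be prey, counted as bait. By that reading, 331 of the microhomology junctions (13.1%) ended past the border at 1943, within or beyond the heptamer. Another 692 (27.5%) ended between the border and 20 bp behind the coding end, 626 (24.8%) between 21 and 100 bp behind it, and 871 (34.6%) more than 100 bp behind it, towards the primer. These 4 zones were set after the ends were seen. The 5 most frequent ends were 1943 (109 junctions), 2092 (99), 1944 (91), 1941 (72) and 1942 (66), so that 4 of them lay at the border of the heptamer and 1 lay 145 bp behind the coding end.

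The middle zone held more of the junctions without DNA-PKcs. It took 31.1% ± 11.0 of them per library without DNA-PKcs (SD, n = 6, lowest 18.7%, highest 48.1%) and 15.8% ± 2.54 with it (n = 6, lowest 11.5%, highest 18.4%), and the 2 ranges did not overlap. The zone more than 100 bp behind took 36.3% ± 11.4 and 51.6% ± 17.5, with overlapping ranges. Telomere-like prey made up 148 of the 626 junctions of the middle zone, and their part in this difference was not tested.

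**Figure D3:**
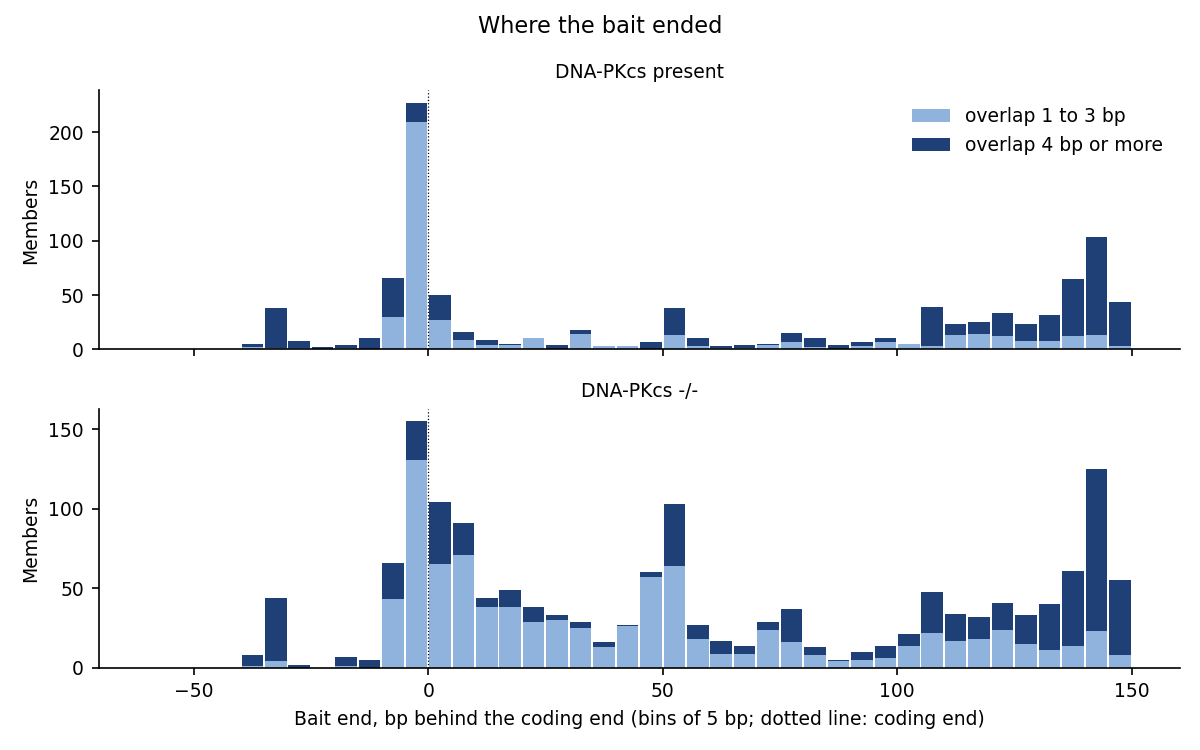
Number of microhomology junctions by the bp between the bait end and the coding end (bins of 5 bp, negative values run past the coding end, with the heptamer starting at -5), for libraries with DNA-PKcs (top) and without it (bottom), split by overlap length. Both groups pile up at the coding end with mostly short overlaps and again more than 100 bp behind it with mostly overlaps of 4 bp or more, and the bins between are fuller without DNA-PKcs. A smaller pile lies past the heptamer at -35 to -31 bp. It has 37 junctions with overlaps of 4 bp or more with DNA-PKcs and 40 without it, and 1 and 4 with shorter overlaps.

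Overlap length followed the bait end. Junctions ending within 20 bp of the coding end and short of the border had a mean overlap of 3.07 bp, with 21.4% at 4 bp or more. Those more than 100 bp behind had 5.88 bp, with 71.6% at 4 bp or more, and those past the border had 5.26 bp. Since overlap bases counted as bait, a longer overlap also moves the bait end forward, towards and past the border. Its part in the 5.26 bp was not tested. With the ends past the border counted in, the mean overlap per library ran from 2.33 to 6.17 bp within 20 bp of the coding end and from 4.44 to 6.55 bp more than 100 bp behind it. It was longer at the far end in 11 of 12 libraries, the exception being DNA-PKcs -/- G1.

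The letters that recurred most lay at the far end of the bait. The most frequent overlap of 3 bp or more was CACAT (46 junctions at 46 sites in 8 libraries), always with the bait end at 2092. Of the other frequent overlaps from the far end, CACATGG had 26 junctions, CACATG 20 and TCACAT 19, all from ends 143 to 145 bp behind the coding end. In all, 225 junctions (8.93%) held CACAT in the overlap, at 223 sites in 12 of 12 libraries, and 225 of 225 had bait ends more than 100 bp behind. Overlap bases are also bait bases, so the substrate's own sequence limits where a given overlap can end. The shared bait ends of an overlap sequence, here and below, are therefore no separate result. The share of junctions with CACAT ran from 1.57% in CtIP A/A DNA-PKcs -/- G2 replicate 1 to 15.4% in CtIP A/A G2 replicate 1.

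Those ends are the shortest baits in the tables. Bait alignments of 35 bp or less made up 14.7% ± 5.07 of the microhomology junctions per library (SD, n = 12), against 4.17% ± 8.22 of the directly joined and 1.84% ± 2.23 of the inserted dispersed junctions. The shortest bait alignment in any junction was 26 bp. How far a minimum alignment length set by the authors' junction caller shapes these overlaps was not tested. Whether all junctions with such short baits are joins of broken ends was not tested either.

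The frequent overlaps at the coding end were 3 bp long. CTG (32 junctions), TGC (25), GTC (25) and TCT (20) had their most common bait ends at 1943, 1942, 1945 and 1944. CTGAGC (17 junctions) came from 1 bait end, 50 bp behind the coding end.

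The remaining one, the 15 bp overlap CAAAAATAATAGGAA printed above, came from 1 bait end, 2 bp behind the coding end, at 16 sites in 6 libraries. Its bases equalled the reference in 11 junctions at 11 sites, 11 of 11 in repeats masked in the reference, and 10 of those 11 were in G1 libraries, 5 with and 6 without DNA-PKcs. The sequences around the chromosome 10 and chromosome 15 examples resemble each other well beyond the overlap.

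The 11 overlaps of 19 bp or more, the last 5 tied at 19 bp, ran up to 24 bp. That of 24 bp, on chromosome 15 in CtIP A/A DNA-PKcs -/- G1, differed from the reference at 14 bases, so it did not match along its whole length. That of 23 bp, between genes on chromosome 17 in DNA-PKcs -/- G2 replicate 1, had 0 unlike bases. An overlap of 19 bp with 0 unlike bases lay in a coding exon of Spns2, a sphingosine-1-phosphate transporter, at chr11:72489654 and was found in wild type G1 and in CtIP A/A G2 replicate 1, with prey alignments of 85 and 60 bp. A further 19 bp overlap without unlike bases lay in an intron of Kcnu1, a potassium channel gene. The remaining 6, in Hsph1, Otud7a, Syne1, Panx2, Prg4 and between genes on chromosome 13, differed from the reference at 1 to 6 bases.

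Where the bait had ended near its coding end and DNA-PKcs was present, the prey junction often lay beside a heptamer start. Here and below, bait ends within 20 bp include those past the border, which reached -40 bp (negative values run past the coding end). Of junctions with such bait ends, CAC started at 1 of the first 5 lost bases, read from the break outward on the other strand, in 184 of 439 (41.9%) with DNA-PKcs and in 34 of 579 (5.87%) without it. In windows 1000 bp to either side of the same junctions, the shares were 6.95% and 6.56%. Junctions with bait ends 21 to 100 bp behind gave 8.50% with DNA-PKcs and 2.96% without it, and those more than 100 bp behind gave 3.89% and 5.43%. This measure was chosen after the sequences had been seen.

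By library, the share with CAC was 40.1% of 327 junctions in wild type G1, 43.8% of 16 in G2 replicate 1 and 0 of 3 in G2 replicate 2, where 0 sets no useful limit. It was 50% of 54 in CtIP A/A G1, and 57.1% of 14 and 44.0% of 25 in G2. In DNA-PKcs -/- cells it was 2.78% of 36 in G1, 0 of 11 (which allows up to 27.3%) and 13.6% of 22 in G2. In CtIP A/A DNA-PKcs -/- cells it was 6.85% of 292 in G1, and 5.22% of 115 and 3.88% of 103 in G2. Apart from the library with 3 such junctions, all libraries with DNA-PKcs lay above all libraries without it.

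Averaged over strata, the share was 5.25% without DNA-PKcs and 40.6% with it, a difference of -35.4 points (-48.4 to -12.6, p = 0.0417, two-sided exact permutation). Without wild type G2 replicate 2 it was -40.8 points (p = 0.0139, exact permutation). With antigen receptor loci left out it was -34.4 points, with bait ends past the border left out -48.5 points, and with overlaps of 1 to 3 bp only -51.1 points (p = 0.0417 for each, exact permutation). With the samples paired by replicate number, and without any of 7 single libraries, the test missed the threshold: p ran from 0.0556 to 0.0833 with differences of -29.9 to -35.5 points, with fewer arrangements to draw on.

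**Figure D4:**
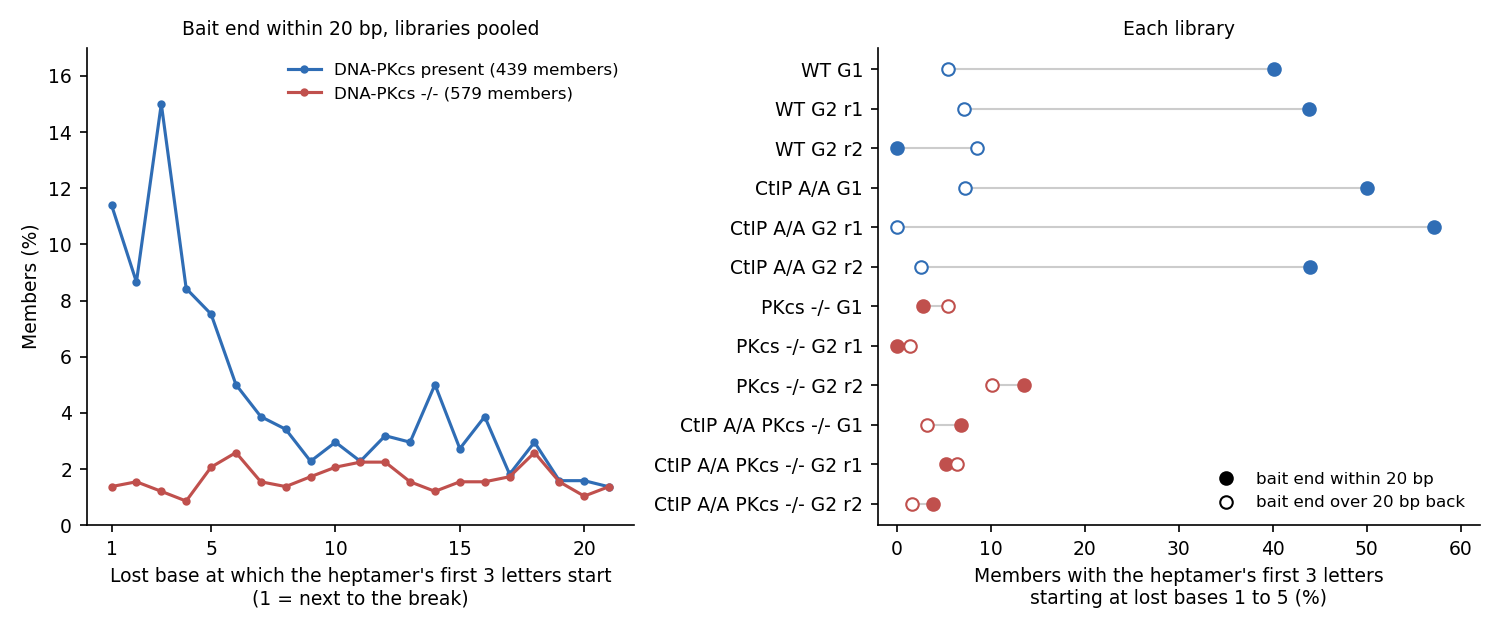
Left, percent of microhomology junctions with bait ends within 20 bp (ends past the border included) in which the heptamer's first 3 letters start at a given lost base, libraries pooled by DNA-PKcs group. Right, percent with that start at lost bases 1 to 5 in each of the 12 libraries, for bait ends within 20 bp (filled) and over 20 bp back (open). The left curve with DNA-PKcs peaks at 15% at base 3 while the other stays at 2.59% or less, and at the right 5 filled points with DNA-PKcs lie at 40.1% or more.

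The position was sharp. With DNA-PKcs, CAC started at lost base 1 in 11.4% of the junctions, at base 3 in 15%, at base 5 in 7.52% and at base 9 in 2.28%. Without DNA-PKcs no base from 1 to 21 exceeded 2.59%.

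The whole heptamer was found less often than CAC, with the same direction. CACAGTG lay within lost bases 1 to 20 in 40 of 439 junctions with DNA-PKcs (9.11%) and in 5 of 579 without it (0.864%), against 0.342% and 0.259% in the windows 1000 bp away. Of the 40, 31 came from wild type G1 (of 327 junctions). The wild type G2 replicates gave 1 of 16 and 0 of 3. CtIP A/A cells gave 5 of 54 in G1, and 0 of 14 and 3 of 25 in G2. At lost bases 21 to 50 it was found in 0.911% and 0.518%, and at 201 to 500 in 2.96% and 5.35%, windows of another length. The reverse complement CACTGTG, which also starts with CAC, lay within lost bases 1 to 20 in 7.06% and 0.518%. With antigen receptor loci left out, 7.46% and 0.537% kept CACAGTG. By library averages the whole heptamer differed by -6.51 points between the DNA-PKcs groups (p = 0.125, exact permutation).

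The same contrast was present in dispersed junctions without microhomology. Among those joined directly with bait ends within 20 bp, CAC lay at the first 5 lost bases in 63.8% with DNA-PKcs and in 6.42% without it. Among those with insertions the shares were 52.3% and 4.12%. These pooled values were above the 41.9% of the microhomology junctions, and that difference was not tested.

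Some heptamers were hit more than once. Beside the Copb1 heptamer, in an intron of the gene for a coatomer subunit, 4 junctions of wild type G1 began between 114228085 and 114228092. Beside the Ighv1-11 heptamer 3 junctions of the same library began at 114612245 and 114612246, and beside that of Ighv1-54 2 began at 115193675 and 115193680. The A930007I19Rik position was used in wild type G1 and in CtIP A/A DNA-PKcs -/- G1, with an overlap of 2 bp in both. The Gm31718 position, 126867720, was joined to 3 bait ends in 6 junctions of 3 libraries, wild type G1, wild type G2 replicate 1 and CtIP A/A G1, all from -3 to 8 bp of the coding end.

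Antigen receptor loci, the natural targets of RAG, took a small part. The loci off chromosome 6 held 87 of the 2520 junctions (3.45%) in 11 of 12 libraries. They held 39 of 983 with DNA-PKcs (3.97%) and 48 of 1537 without it (3.12%), and 204 of all 5701 dispersed junctions (3.58%). These shares were not tested against each other. The immunoglobulin heavy chain locus Igh (chr12:113254830-116010093) had 52 in 8 libraries, 39 of them with the bait end within 20 bp. The lambda light chain locus Igl (chr16:19061618-19260859) had 22 in 7 libraries. Tcrg (chr13:19178024-19352756) had 11 in 6 libraries, 10 of them without DNA-PKcs, and Tcra/Tcrd (chr14:52427928-54224206) had 2, both in 1 library. The mean overlap at these loci was 3.02 bp.

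Of 8 genes known as translocation partners in lymphoma, 7 had no junction (Myc, Pvt1, Pax5, Ccnd1, Ccnd2, Bcl6 and Mycn). Ccnd2 lies on chromosome 6 and so could not have any. For each of the others, 0 of 2520 pooled junctions allows a share of up to 0.119%, by counting error only. All are shorter than 1 Mb, the longest being Pvt1 (chr15:62037986-62378096), and autosomes held a median of 0.994 junctions per Mb. At that density 0 is a likely count for genes of such length, and it says nothing particular about them. Notch1 (chr2:26457903-26516663), a receptor gene that RAG is known to cut in T cell leukaemia, had 5 junctions in all, from the 4 G1 libraries, with a mean overlap of 2.20 bp.

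Most sites were single. The 2449 distinct junctions fell in 1257 of the genome's 1 Mb bins, 701 bins held 1, and 20 bins held 10 or more. Per Mb of chromosome, the 18 autosomes other than chromosome 6 ran from 0.759 on chromosome 15 to 1.70 on chromosome 11, with a median of 0.994. By annotation (GENCODE M21), 1196 junctions (47.5%) lay in introns, 1096 (43.5%) between genes, 111 (4.4%) in coding exons, 62 (2.46%) in non-coding exons and 55 (2.18%) in UTRs. In the dispersed junctions without overlap the shares were 44.0%, 47.6%, 3.87%, 2.23% and 2.36%. Repeats masked in the reference held 1023 of the microhomology junctions.

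The 5 bins richest in distinct junctions, among those seen in 3 or more libraries, were of different kinds. The Igl bin (chr16, Mb 19) held 20 in 8 libraries, and the Igh variable bin (chr12, Mb 115) held 20 in 7. The bin at chr2, Mb 98 held 17 in 6 libraries, 17 of 17 in masked repeats and 15 of them in Gm10800. The bin at chr19, Mb 32 held 16, of which 13 came from CtIP A/A DNA-PKcs -/- G2 replicate 2. The bin at chr11, Mb 98 held 15, including Rara, a retinoic acid receptor gene, with 7 and Ikzf3, which encodes the lymphoid factor Aiolos, with 3. It was tied with the bin at chr8, Mb 126, which held 15 in 5 libraries, 9 of its lines in Gm31718.

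Among genes seen in 3 or more libraries, the richest was Gm10800 (ENSMUSG00000075014, chr2:98666547-98667301) with 15 distinct junctions, 15 of them in masked repeats and 13 without DNA-PKcs. Sgms1, a sphingomyelin synthase gene (chr19:32122727-32389714), had 14. Libraries without DNA-PKcs held 1537 of all 2520 junctions, and single genes were not tested against that share. Of the Sgms1 junctions 12 came from CtIP A/A DNA-PKcs -/- G2 replicate 2, at 14 positions spread over introns, and 0 of the 9 with bait ends within 20 bp had CAC at the first 5 lost bases. Cyth1, a guanine nucleotide exchange factor gene (chr11:118132019-118248592), had 12, of which 10 came from wild type G1, and 5 of its 9 with near bait ends had CAC there. Zeb2, a transcriptional repressor gene (chr2:44983632-45117395), had 10, of which 8 came from wild type G1, with CAC in 5 of 9. The span annotated as Fgfr2, a growth factor receptor gene (chr7:130162451-133123350), had 11, of which 10 were without DNA-PKcs. It is a long span, and these 11 lay between 131107118 and 132956947, all in introns by annotation. Whether those positions lie near the receptor's coding exons was not examined. 2010309G21Rik (12), which overlaps Igl, Pxylp1 (12), Plekha6 (11), Gm20388 (8) and Gm21738 (8) were the other genes named by the rule. Masked repeats held 12 of the Pxylp1 junctions, 6 of Plekha6, 8 of Gm21738, 4 of the 9 lines of Gm20388 and 0 of 2010309G21Rik. Telomere-like prey made up 9 of the Pxylp1 junctions and 5 of those in Plekha6. Both of these genes had 0 junctions with DNA-PKcs.

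Some bins were filled mostly by 1 library, and the 3 given here were picked out after their counts had been seen. The 13 junctions at chr7, Mb 114, of which 7 were in Copb1, were all from wild type G1, and 7 of 13 had CAC beside the break. At chr3, Mb 88, 10 of 12 junctions came from wild type G1. Of the 12, 10 lay in Mef2d, a transcription factor gene, and 7 of the 11 with near bait ends had CAC beside the break. Ptprc, which encodes CD45, held 8 of 12 at chr1, Mb 138, and 8 of the 12 came from wild type G1, with CAC in 1 of the 7 with near bait ends. Whether such a bin belongs to the genotype or to the one library cannot be told apart for G1, where each genotype had 1.

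Identical junctions in separate libraries were rare. Of 2449 distinct combinations of prey position, strand and bait end, 46 (1.88%) were seen in 2 or more libraries and 6 in 3 or more. All 6 had bait ends 105 to 136 bp behind the coding end. The most frequent, between genes at chr3:95973480 with a 3 bp overlap, had 7 lines in 4 libraries of both runs, wild type G2 replicate 2 and all 3 of CtIP A/A. The AU040320 junction, with a 12 bp overlap, was seen in 4 libraries of 3 genotypes in both runs, and a junction at chr4:79849307 with a 1 bp overlap was seen in 4 libraries of 4 genotypes in 1 run.

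Telomere-like prey escaped the exclusion of telomere repeats. Prey with 3 or more of the pieces CTAA or TTAG made up 243 junctions (9.64%), 23 with DNA-PKcs and 220 without it, and 188 of them held 2 exact hexamers, just under the threshold of 3. Per library they made up 16.9% ± 7.19 without DNA-PKcs (SD, n = 6) and 1.67% ± 1.88 with it (n = 6), and the ranges, 8.38% to 26.6% and 0% to 3.92%, did not overlap. Their prey alignments were short, with a median of 35 bp against 61 bp in the others, their mean overlap was 2.43 bp against 4.66 bp, and 60.9% had bait ends 21 to 100 bp behind the coding end, against 21%. Of the 7 prey positions joined to 3 or more bait ends, 6 had at least 1 junction with such prey, and those 6 were seen in libraries without DNA-PKcs. At the chromosome 1 site printed above, 6 junctions in 3 libraries had 6 bait ends, with prey alignments of 27 to 32 bp. Whether such short prey came from that site or from other telomere repeats was not tested.

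Set against other dispersed junctions of the same library, microhomology junctions had bait ends further back and prey of lower GC than direct ones, neither beyond the adjusted threshold. Bait ends over 20 bp behind the coding end made up 67.4% ± 16.0 of them and 53.1% ± 30.3 of direct junctions (SD, n = 12), higher in 9 of 12 libraries, a difference of 14.3 points (2.20 to 26.7, p = 0.0264, adjusted p = 0.0791, two-sided exact sign-flip permutation over libraries). The GC content of the first 50 prey bases was 45.5% ± 1.48 and 48.0% ± 3.02, a difference of -2.50 points (-4.32 to -0.683, adjusted p = 0.0791, exact permutation), lower in 10 of 12. In microhomology junctions these 50 bases include the overlap, which repeats bait letters, so GC was not independent of how the junctions were chosen. The overlap's part in the GC differences, here and below, was not tested. Leaving out 1 library at a time, the bait-end and GC differences both passed only without wild type G2 replicate 2 (adjusted p = 0.0498 and 0.0117, exact permutation), and neither passed without any other. With bait ends more than 100 bp behind left out, the bait-end difference was 7.89 points (adjusted p = 0.225, exact permutation). Prey in annotated genes made up 55.3% and 54.9% (adjusted p = 0.901, exact permutation).

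Against inserted junctions no measure passed. The differences were 4.85 points for bait ends over 20 bp (-2.93 to 13.1), 5.84 points for prey in genes (-0.559 to 12.2) and 0.465 points for GC (-1.21 to 2.09), with adjusted p of 0.373, 0.138 and 0.649 (exact permutation). The GC comparison depended on the bait ends more than 100 bp behind. With those left out, a setting added after the data were seen, microhomology junctions were lower in GC than direct ones by a difference of -5.93 points and than inserted ones by -3.72 points (adjusted p = 0.00146 for each, exact permutation). With telomere-like prey left out as well, the differences were -6.45 and -5.12 points. The overlap bases were counted in the GC in these settings too.

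**Figure D5:**
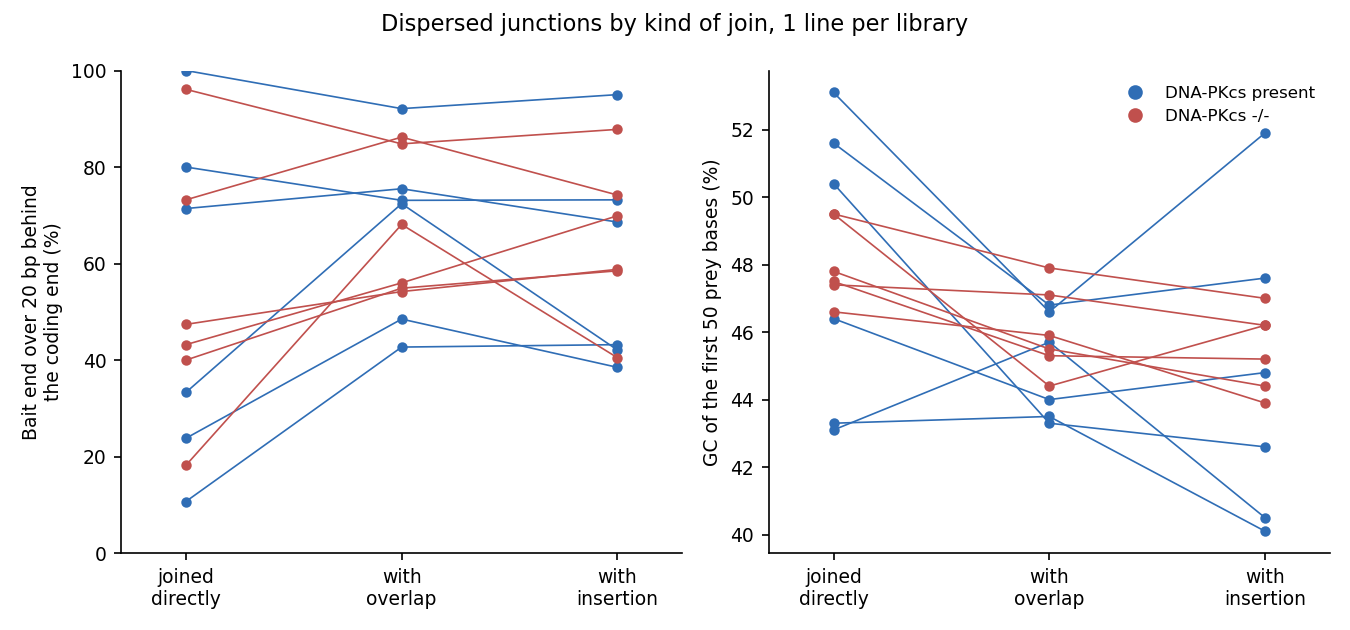
For each of the 12 libraries (1 line each), percent of dispersed junctions whose bait ended over 20 bp behind the coding end (left) and mean GC percent of the first 50 prey bases (right), for junctions joined directly, with overlap, and with insertion. In 9 of 12 libraries the left line rises from direct to overlap, and in 10 of 12 the right line falls. For junctions with overlap, the 50 bases include the overlap bases.

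The mean overlap was longer than in coding joins on the substrate, the intended products. Coding joins on the substrate with at least 1 bp of overlap (2770) had a mean overlap of 2.68 bp ± 0.529 per library, against 4.68 bp ± 0.709 for the dispersed junctions (SD, n = 12). The difference was 2 bp (1.64 to 2.33), higher in 12 of 12 libraries, with p = 4.88e-04, the smallest that the exact sign-flip permutation allows. With only joins whose partner end lay on the coding side of its heptamer (2130), the coding joins had 1.76 bp ± 0.0972, and the difference was 2.92 bp (2.47 to 3.37). The 2 kinds differ in where the bait ended, so like ends were also compared, a setting added after the data were seen. With bait ends more than 100 bp behind left out on both sides the means were 3.88 and 2.26 bp, a difference of 1.62 bp (1.21 to 2.03). With only bait ends within 20 bp they were 3.89 and 1.93 bp, a difference of 1.96 bp (1.25 to 2.71), higher in 12 of 12 libraries in both settings. Overlaps were counted as aligned, and only 64.9% of dispersed overlaps of 8 bp or more equalled the reference. The joins on the substrate share the heptamer bases at their borders. The part of either in the difference was not tested.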

How the data were processed

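The deposited tables list 1 HTGTS junction per line. Per the file headers they give where the prey lies and on which strand, where the bait stopped, and the read positions of both alignments, which are base positions and other unnormalized values. Per the labels' protocols the substrate was added to mm10 as a chromosome. Bowtie2 and mm10 appear in the submitters' processing notes. The junction caller, its settings and tool versions are not given in the sources used here. Overlap was the number of read bases shared by both alignments. Prey bases were read from GRCm38.p6, and genes came from GENCODE mouse M21. The tools were pysam 0.24.0, pandas 2.3.3 and numpy 2.4.6 under Python 3.11.15. Libraries were compared by exact permutation within 4 strata, with intervals from inverting the test and Benjamini-Hochberg adjustment over 4 measures, or over 6 for differences within libraries. The tests were tried on simulated data. The named genes were the receptor loci, 8 partner genes, and the 10 genes and 5 bins of 1 Mb with the most distinct junctions in 3 or more libraries. The junctions, lists and zones were chosen with earlier results of these data known. The 6 I-PpoI samples are not analysed here.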

Additional observations from a re-analysis of the deposited data

How the results depend on the processing

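For 20 results, 1 of them added after the data were seen, 461 values were computed under alternatives, and 412 of them kept their direction and side of the threshold (for values without a test, moved less than the spread). All microhomology shares, rates and bait ends rest on the authors' junction calling, the small G2 libraries (38 to 102 junctions with DNA-PKcs) set the precision, and each G1 genotype is 1 library. The cause of each change below was not tested.

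Most sign changes were in differences that had missed the threshold. The DNA-PKcs difference in microhomology share was 0.322 points with uncut lines and prey under 30 bp left out, 0.691 with the cluster windows kept and 0.625 with telomere-like prey left out, and -9.46 to -2.24 without single libraries. That in junctions per 100 was 1.30 with the windows kept, 0.728 with bait ends over 100 bp back left out and 5.18 in the first G2 replicates alone, and -4.21 to 1.76 without single libraries. That in mean overlap was -1.93 bp in the first G2 replicates alone. That in bait ends over 20 bp was -2.17 in those, -12.4 in G2 libraries alone, 18.3 with far bait ends left out, and -3.85 to 8.65 without single libraries. The CtIP difference in mean overlap was 0.0543 bp for overlaps of 2 bp or more, 0.0855 with the windows kept, 0.0548 with far bait ends left out, 0.108 in the second sequencing run, -0.883 in the first, and -0.372 to 0.0334 without single libraries. That in junctions per 100 was 9.22 in the first run and 1.29 to 7.34 without single libraries, and that in share 5.94 to 13.2. The phase difference in junctions per 100 was 0.370 with the windows kept, and -3.46 to 0.659 without single libraries.

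Against direct junctions, prey in genes differed by -0.483 points with uncut lines and short prey left out, -0.589 with windows kept, -7.37 with far bait ends left out, -1.17 with telomere-like prey left out and -8.36 with both left out, and by -1.05 to 1.88 without single libraries. Prey GC differed from direct junctions by -5.93 points with far bait ends left out and -6.45 with telomere-like prey left out too, and by -2.96 to -2.08 without single libraries. From inserted junctions it differed by -3.72 and -5.12 in the same settings. Bait ends against direct junctions differed by 7.89 points with far bait ends left out, 9.28 with both left out and 11.0 to 16.6 without single libraries. The CAC difference was -6.51 points for the whole heptamer, and -40.8 to -29.9 without single libraries.

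With the replicate number as a replicate block, the DNA-PKcs difference was -5.85 points in share, -0.961 bp in mean overlap (adjusted p = 0.125, exact permutation), -0.0125 points in bait ends and -33.8 points in CAC (p = 0.0625, exact permutation). Among G2 libraries the number goes with the sequencing run, while G1 libraries carry number 1 and belong to the second run. The first G2 replicate was the higher one in 3 of 4 genotypes for share and mean overlap, in 1 for junctions per 100 and in 2 for bait ends. The phase comparison has no such fit, since G1 has replicate 1 only.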
